A study of Mus musculus with 8 samples.

Results

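Abca12, Alox12b, Aloxe3, Alox12e, Cers3, Elovl4, Pnpla1, Ugcg, Tgm1 and Tgm3 encode enzymes and a transporter of the barrier lipids and of protein crosslinking in squamous epithelium. They were chosen by name, as 10 of the 24419 gene symbols in the count table. All 10 had enough counts to be tested. Bulk polyA RNA was sequenced from 4 mouse models of endometrial cancer, TPM, TPK, TPMCa and TPMR1, with 2 libraries per model. All models started from uterus organoids of CAG-Cas9-EGFP mice whose edits included an sgRNA against Trp53. Myc was overexpressed in TPM, TPMCa and TPMR1. TPMCa also carried Pik3ca E545K cDNA, and TPMR1 an sgRNA against Pik3r1. TPK had edits of its own and no Myc cDNA. The labels give nude mice as the strain and tumor organoids as the material, whereas the methods of the study describe tumor tissue from the uterus of female nude mice that had received the edited organoids. The age of the mice was not used here.

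In the upper layers of the epidermis, ceramides with ultra-long acyl chains are made, linked to linoleate, loaded into lamellar bodies and released between the cells. Lipoxygenases then oxidize the linoleate, which lets the ceramide be attached to a shell of crosslinked protein, the cornified envelope. Transglutaminases make that shell by joining glutamine and lysine side chains of involucrin, loricrin, small proline-rich proteins and others. Normal endometrial glands are lined by simple columnar epithelium and have no cornified layer.

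Total counts lay between 15748396 and 26943611 per library, and 3 counts, taken as the floor, equaled 0.116 to 0.198 CPM (counts scaled to a common library size by TMM), which covers counting error only. Summed squamous markers (Trp63, Krt5, Krt14, Krt15, Krt1, Krt10, Krt13 and Krt4) were at 3247 to 18415 CPM in TPM and 18899 to 25784 CPM in TPK, but at 5.23 to 10.5 CPM in TPMCa and 3.37 to 13.1 CPM in TPMR1. Summed general epithelium markers (Epcam, Cdh1, Krt7, Krt8, Krt18 and Krt19) were at 2941 to 5498, 3236 to 4963, 23.7 to 73.3 and 6.47 to 27.4 CPM in the same order. In TPMR1, Krt5, Krt1, Krt13 and Krt4 were at 0 counts in both libraries. The libraries labeled TPMCa and TPMR1 thus held few transcripts of epithelial markers, although the labels name endometrial cancer models. Col1a1 of fibroblasts reached at least 292 CPM in each library and Cdh5 of endothelium at least 13.4 CPM. Trp53, the target of the shared sgRNA, was at 33.2 to 130.7 CPM, and Pik3r1 at 51.3 to 100.5 CPM in TPMR1 against 78.1 to 187.7 CPM elsewhere, so neither target was lost at the RNA level, and an indel need not remove the transcript. In bulk RNA, fewer cells of a type and less RNA per cell cannot be told apart.

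Against the mean of TPMCa and TPMR1, 6 of the 10 genes were higher in TPM, from 22.1-fold for Tgm1 upward, and 3 were higher in TPK, at an adjusted p under 0.05 in edgeR's quasi-likelihood test over all 15875 genes tested. In TPMCa and TPMR1, Abca12, Alox12b and Alox12e were at or under the floor in all 4 libraries, Pnpla1 and Tgm3 in some of them, and the other 5 genes in none. Folds are ratios of mean CPM, whereas log2 values come from the fit, which averages TPMCa and TPMR1 on the log scale, so a fold and its log2 value need not match. Among all genes tested, 7.44% were called higher in TPM and 10.3% in TPK. The 6 calls in TPM became 2 without TPM replicate 1, TPMCa replicate 1 or TPMCa replicate 2 and 3 without TPM replicate 2, and the 3 in TPK became 1 without TPMCa replicate 2. Calls over all genes fell in those fits too. Without overlap, 8 members were higher in TPM, as were 19.4% of genes, and 5 in TPK, as were 22.4%. Ugcg, whose product makes glucosylceramide in many tissues, was at 23.1 to 118.7 CPM over all models and was not called. Elovl4, Pnpla1 and Abca12 were called in TPM and not in TPK, and both TPK libraries lay below both TPM libraries, as for 23.5% of all genes, but the direct comparison of TPK with TPM called none of them (adjusted p = 0.653, 0.683 and 0.741, edgeR).

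**Figure D1:**
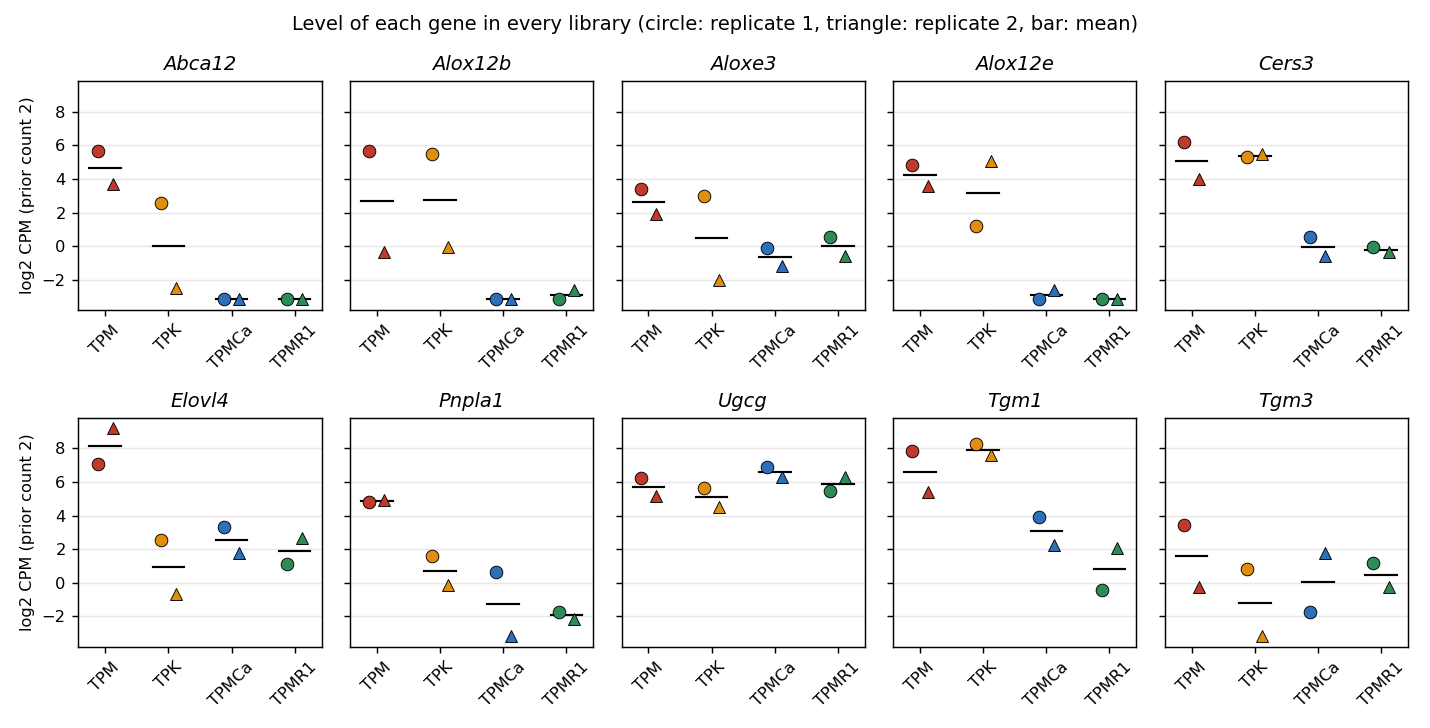
Level of each of the 10 genes in all 8 libraries, as log2 CPM with a prior count of 2 on the vertical axis and the models on the horizontal axis. Circles are replicate 1, triangles replicate 2 and bars the mean of the pair. Elovl4 and Pnpla1 are highest in the TPM pair, Cers3 and Tgm1 are higher in TPM and TPK than in TPMCa and TPMR1, and Ugcg is expressed in all models.

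Promoter sequence was examined for genes called in both TPM and TPK and for genes called in TPM alone, although no gene passed the adjusted test between TPK and TPM. RefSeq promoters of GRCm38.p6 matched 9 of the 10 genes, and Aloxe3 had no entry. Starts here are those of RefSeq, and the windows of Alox12b, Alox12e, Ugcg and Tgm1 overlapped their genes as annotated by GENCODE M21. The 250 bases before the start are shown 5′ to 3′ on the strand of the gene, for a gene called in both TPM and TPK (Cers3), a pair called in TPM alone (Elovl4 and Pnpla1) and the gene whose window held the most kinds of motif (Tgm3). Capitals mark matches, on either strand, to the TATA box TATAAA, the C/EBP-like word TTGCNNAA and the KLF-like word GGGNGTGG.
Cers3, chr7:66743254-66743503, plus strand: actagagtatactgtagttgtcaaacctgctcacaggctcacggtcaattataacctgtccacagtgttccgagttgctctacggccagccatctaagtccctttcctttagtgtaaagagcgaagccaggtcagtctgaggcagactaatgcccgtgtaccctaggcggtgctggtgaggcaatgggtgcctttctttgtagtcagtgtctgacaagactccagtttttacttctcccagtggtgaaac
Elovl4, chr9:83806306-83806555, minus strand: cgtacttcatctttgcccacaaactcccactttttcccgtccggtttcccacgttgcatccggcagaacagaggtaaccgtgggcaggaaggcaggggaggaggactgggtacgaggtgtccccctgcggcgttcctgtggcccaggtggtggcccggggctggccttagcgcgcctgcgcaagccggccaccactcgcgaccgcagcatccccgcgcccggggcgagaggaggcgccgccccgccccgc
Pnpla1, chr17:28858161-28858410, plus strand: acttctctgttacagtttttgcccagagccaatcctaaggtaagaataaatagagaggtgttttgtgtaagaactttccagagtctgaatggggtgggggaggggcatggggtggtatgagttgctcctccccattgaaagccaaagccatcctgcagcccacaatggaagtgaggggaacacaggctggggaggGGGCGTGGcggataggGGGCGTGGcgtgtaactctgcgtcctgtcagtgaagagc
Tgm3, chr2:130012090-130012339, plus strand: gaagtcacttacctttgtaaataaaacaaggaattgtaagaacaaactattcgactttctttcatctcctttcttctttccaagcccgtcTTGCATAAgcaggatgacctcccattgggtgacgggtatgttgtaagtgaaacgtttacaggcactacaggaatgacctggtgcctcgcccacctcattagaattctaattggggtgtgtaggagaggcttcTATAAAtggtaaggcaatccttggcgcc

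The Tgm3 window held a TATA box 28 bases before the start and a C/EBP-like word 160 bases before it. Among all 32851 RefSeq promoters, 12.4% held that TATA word and 9.56% that C/EBP-like word. The Pnpla1 window held the KLF-like word at 55 and 39 bases before the start, and Alox12b held it once, against 15.9% of all promoters. No member's window held the AP-1 word TGANTCA, the GRHL word AACNGGTT or the E-box CACGTG, which were in 6.75, 1.79 and 6.02% of all promoters. Base composition varied among the genes. The Ugcg and Tgm1 windows lay wholly within their GENCODE genes, so their composition may be that of transcribed sequence. The Ugcg window was 80.4% GC with 43 CpG, more CpG than 99.3% of promoters, and the Elovl4 window was 69.6% GC with 25 CpG. Abca12, Alox12e, Cers3, Pnpla1, Tgm1 and Tgm3 windows held 3 to 8 CpG, against a median of 6 in all promoters. Among the genes called in TPM alone, the Elovl4 window held 25 CpG and those of Pnpla1 and Abca12 held 5 each. A word match is a description of these windows only.

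Elovl4, on chromosome 9 of GRCm38 from 83778692 to 83806277 (minus strand), encodes an elongase that makes the ultra-long chains of barrier ceramides. It was at 135.9 and 588.9 CPM in TPM replicates 1 and 2, 5.66 and 0.527 CPM in TPK, 9.82 and 3.28 CPM in TPMCa, and 2.05 and 6.17 CPM in TPMR1. Only the TPM pair was high, with replicate 2 the highest, and no other library exceeded 9.82 CPM. Elovl4 rose 68.0-fold in TPM over the mean of TPMCa and TPMR1 (log2 fold change 6.13 ± 1.04 (SE), adjusted p = 0.0160, edgeR). Without TPM replicate 2 the log2 difference was 4.71, and without TPM replicate 1 it was 6.82. Without TPMCa replicate 1 or 2 it was 6.61 or 5.83. The call was lost without TPM replicate 2 or either TPMCa replicate. In TPK the log2 difference from that mean was -0.73 ± 1.05 (SE), with overlapping groups and an adjusted p of 0.673.

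Cers3, on chromosome 7 of GRCm38 from 66743504 to 66823691 (plus strand), encodes the ceramide synthase that joins those acyl chains to the sphingoid base. Its levels were 71.9 and 15.96 CPM in TPM, 39.0 and 44.5 CPM in TPK, 1.33 and 0.557 CPM in TPMCa, and 0.852 and 0.667 CPM in TPMR1. The 4 libraries of TPM and TPK lay above the 4 libraries of TPMCa and TPMR1 with a wide gap, and the TPK pair differed by only 1.14-fold. Cers3 rose 51.6-fold in TPM (log2 5.69 ± 0.66 (SE), adjusted p = 0.00449) and 49.0-fold in TPK (log2 5.61 ± 0.65 (SE), adjusted p = 0.00393), both by edgeR against the mean of TPMCa and TPMR1. In both comparisons it was called in all 15 alternative settings, with log2 differences of 4.21 (without TPM replicate 1) to 6.40 (without TPM replicate 2) in TPM and 5.36 to 5.99 in TPK.

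Pnpla1, on chromosome 17 of GRCm38 from 28858411 to 28890309 (plus strand), encodes the transacylase that links linoleate to the ultra-long acyl chain and so makes acylceramide. It was at 27.5 and 30.1 CPM in TPM, the closest TPM pair of the 10 genes, at 2.92 and 0.791 CPM in TPK, 1.46 and 0 CPM in TPMCa, and 0.194 and 0.111 CPM in TPMR1. TPM stood above all other libraries, whereas TPK replicate 2 fell below TPMCa replicate 1. Pnpla1 rose 65.4-fold in TPM over the mean of TPMCa and TPMR1 (log2 6.39 ± 1.25 (SE), adjusted p = 0.0265, edgeR), and the difference in TPK was 4.21-fold (adjusted p = 0.206). The size of the difference in TPM rested on TPMCa replicate 1, without which it was 9.76 on the log2 scale with 2 of the 3 libraries left in TPMCa and TPMR1 at or under the floor, and without that library Pnpla1 also passed in TPK (adjusted p = 0.0350). The adjusted p in TPM was 0.116 without TPM replicate 1, 0.105 without TPM replicate 2, and 0.0527 and 0.0523 without TPK replicate 1 or 2. The antisense gene Pnpla1os overlaps 644 exonic bases of Pnpla1, and strand was not stated for the counting, so reads there could belong to either gene.

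Ugcg, on chromosome 4 of GRCm38 from 59189257 to 59222833 (plus strand), encodes the enzyme that adds glucose to ceramide, a form in which barrier lipids are stored in lamellar bodies. It was at 74.7 and 36.5 CPM in TPM, 50.7 and 23.1 CPM in TPK, 118.7 and 77.4 CPM in TPMCa, and 43.5 and 78.7 CPM in TPMR1. TPM and TPK each overlapped the pooled libraries of TPMCa and TPMR1, and the lowest library was in TPK and the highest in TPMCa. The log2 differences from the mean of TPMCa and TPMR1 were -0.48 ± 0.48 (SE) for TPM (adjusted p = 0.579) and -1.07 ± 0.49 (SE) for TPK (adjusted p = 0.191), by edgeR.

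Abca12, on chromosome 1 of GRCm38 from 71242276 to 71414910 (minus strand), encodes the lamellar body transporter that loads glucosylceramide. Its levels were 49.7 and 12.9 CPM in TPM, 5.83 and 0.0659 CPM in TPK, and 0 counts in all 4 libraries of TPMCa and TPMR1. Expression was thus highest in TPM, intermediate in TPK replicate 1 and at a single read in TPK replicate 2. Against the floor of 3 counts in each library of TPMCa and TPMR1, Abca12 was at least 195.7-fold higher in TPM (adjusted p = 0.0431, edgeR) and at least 18.4-fold higher in TPK (adjusted p = 0.0687). By the level of TPM replicate 1 or 2 alone the bound in TPM was at least 311-fold or at least 80.5-fold. Without TPM replicate 1 or 2 the adjusted p in TPM was 0.186 or 0.111, without TPMCa replicate 1 or 2 it was 0.120 or 0.110, and without TPMR1 replicate 1 it was 0.0506.

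The lipoxygenases act one after the other on the linoleate of acylceramide, Alox12b first and Aloxe3 second. Alox12e, the mouse epidermal 12-lipoxygenase, is a further family member. All lie on chromosome 11 of GRCm38 (GENCODE M21). Aloxe3, from 69125896 to 69149115, and Alox12b, from 69156989 to 69169792, are 7.87 kb apart on the plus strand, whereas Alox12e, from 70315610 to 70322628, lies on the minus strand beyond a gap of 1043.61 kb between Alox8 and Alox12, 60.26 kb from Alox12 and 21.52 kb from Alox15.

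Alox12b was at 49.9 and 0.686 CPM in TPM and 44.6 and 0.857 CPM in TPK, with 0 counts in 3 libraries of TPMCa and TPMR1 and 1 count in TPMR1 replicate 2. Replicates of one model were thus far apart, 72.7-fold in TPM and 52.1-fold in TPK, while the high and the low library of each model were alike. Against the floor it was at least 158.1-fold higher in TPM and at least 142.2-fold higher in TPK by value, and neither passed the threshold (adjusted p = 0.0666 and 0.0522, edgeR).

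Aloxe3 was at 10.5 and 3.60 CPM in TPM, 7.94 and 0.132 CPM in TPK, 0.823 and 0.334 CPM in TPMCa, and 1.36 and 0.556 CPM in TPMR1. Both TPM libraries lay above TPMCa and TPMR1, but TPK replicate 2 lay below all of them. The difference from the mean of TPMCa and TPMR1 was 9.18-fold in TPM (adjusted p = 0.173) and 5.26-fold in TPK (adjusted p = 0.231, edgeR). Per kilobase of exon, Alox12b was 12.5 times the level of its neighbor Aloxe3 in TPM replicate 1 and 14.8 times in TPK replicate 1, but 0.501 times in TPM replicate 2. In TPK replicate 2 it was 17.1 times, from 13 counts of Alox12b and 2 of Aloxe3, the latter under the floor.

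Alox12e was at 28.4 and 11.8 CPM in TPM, 2.23 and 33.8 CPM in TPK, with 1 count in TPMCa replicate 2 and 0 counts in the other 3 libraries of TPMCa and TPMR1. All 4 libraries of TPM and TPK were above the floor, and the order of the TPK pair was the reverse of that of Alox12b. Alox12e was at least 125.5-fold higher in TPM (adjusted p = 0.0153) and at least 112.5-fold higher in TPK (adjusted p = 0.0132, edgeR) than in TPMCa and TPMR1. By single libraries these bounds were at least 177-fold and at least 73.7-fold in TPM and at least 13.9-fold and at least 211-fold in TPK, in the order of replicates 1 and 2. Without TPMCa replicate 1 the adjusted p was 0.0857 in TPM and 0.0680 in TPK, without TPMCa replicate 2 it was 0.0734 and 0.0550, and without TPM replicate 1 it was 0.0757 in TPM.

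Tgm1, on chromosome 14 of GRCm38 from 55700009 to 55713926 (minus strand), encodes the membrane-bound transglutaminase of the cornified envelope. It was at 226.3 and 42.7 CPM in TPM, 305.1 and 194.5 CPM in TPK, 15.0 and 4.56 CPM in TPMCa, and 0.620 and 4.11 CPM in TPMR1. TPM and TPK lay above the other libraries without overlap, and TPMCa lay above TPMR1. Tgm1 rose 22.1-fold in TPM (log2 4.82 ± 0.92 (SE), adjusted p = 0.0245) and 41.1-fold in TPK (log2 5.71 ± 0.95 (SE), adjusted p = 0.0124) over the mean of TPMCa and TPMR1, by edgeR. The call in TPM was lost without either TPMCa, either TPK or the first TPM replicate, with adjusted p values of 0.0582 to 0.180. The log2 difference in TPM was 3.14 without TPM replicate 1, 5.57 without TPM replicate 2 and 5.76 without TPMR1 replicate 2, and that in TPK was 6.66 without TPMR1 replicate 2. In TPK it was lost without TPK replicate 1 (adjusted p = 0.0588), TPK replicate 2 (0.0564) or TPMCa replicate 2 (0.0516). Gm49067 overlaps 182 exonic bases of Tgm1 on the other strand.

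Tgm3, on chromosome 2 of GRCm38 from 130012349 to 130050399 (plus strand), encodes a soluble epidermal transglutaminase that is activated by proteolysis. It was at 10.6 and 0.744 CPM in TPM, 1.66 and 0 CPM in TPK, 0.190 and 3.34 CPM in TPMCa, and 2.17 and 0.723 CPM in TPMR1. Only TPM replicate 1 stood out, and the 4 models overlapped. The log2 differences were 1.82 ± 1.60 (SE) in TPM (adjusted p = 0.520) and -0.93 ± 1.77 (SE) in TPK (adjusted p = 0.756, edgeR), and neither direction held. The first turned to -1.13 without TPM replicate 1, and the second to 0.053 without TPK replicate 2 and 0.66 without TPMCa replicate 2.

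**Figure D2:**
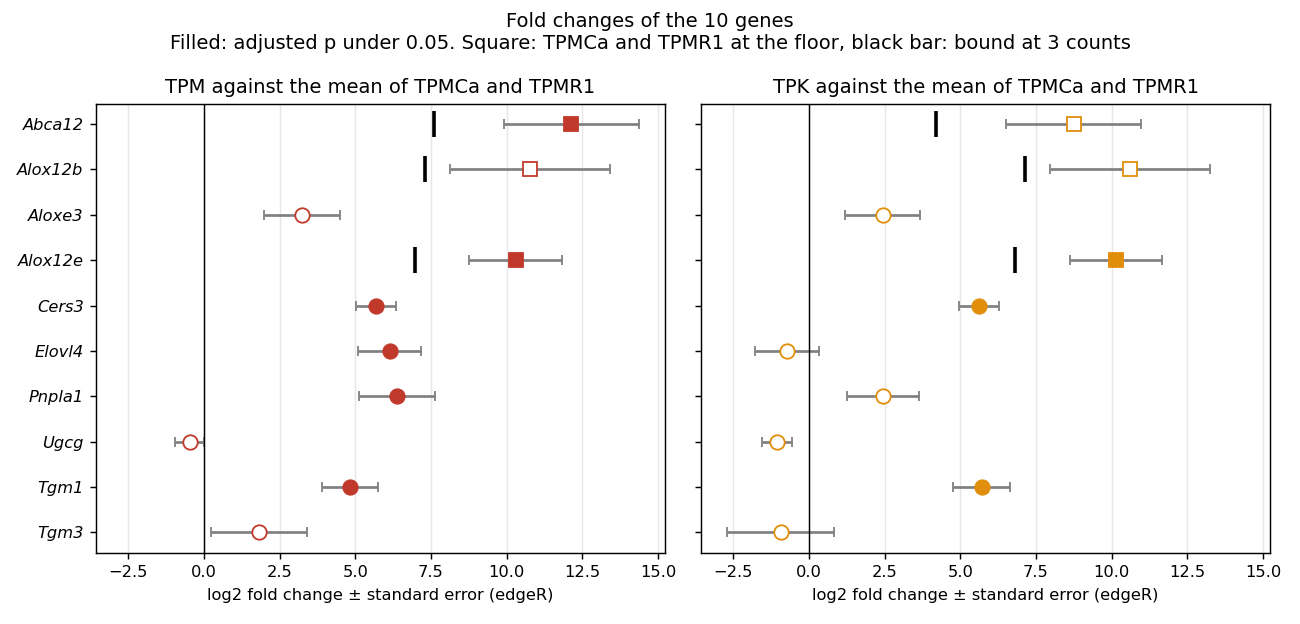
Log2 fold changes with standard errors from edgeR for TPM (left) and TPK (right) against the mean of TPMCa and TPMR1. Filled symbols have an adjusted p under 0.05, squares mark genes at 3 counts or fewer in every TPMCa and TPMR1 library, and black bars give their bound. In TPM 6 genes are filled, in TPK Alox12e, Cers3 and Tgm1 are, and Ugcg lies left of 0 in both without passing the test.

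Compared per kilobase of merged exons, which allows levels of different genes to be set side by side, Elovl4 was the most abundant in TPM at a mean of 119.8 CPM per kb. Tgm1 followed at 42.5, Cers3 at 13.5 and Ugcg at 10.7 CPM per kb. In TPK Tgm1 led at 79.0 CPM per kb, Cers3 was at 12.8 and Elovl4 at 1.02 CPM per kb. In TPMCa and TPMR1 Ugcg led at 18.8 and 11.7 CPM per kb, and no other member exceeded 3.10 CPM per kb. The mean order in TPM rests on libraries that differed, since Tgm1 led in replicate 1 and Elovl4 in replicate 2.

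**Figure D3:**
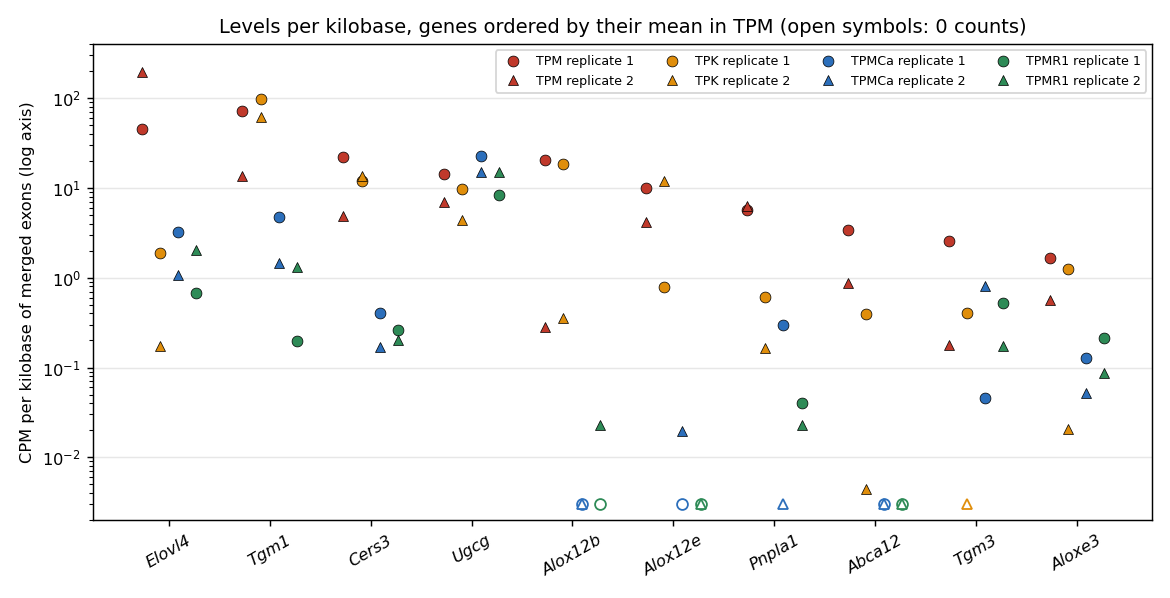
CPM per kilobase of merged exons on a log axis for the 10 genes, ordered by their mean in TPM, with circles for replicate 1 and triangles for replicate 2 of each model and open symbols at the bottom for 0 counts. Elovl4 leads in TPM with a mean of 119.8 CPM per kb and Tgm1 in TPK with 79.0 CPM per kb.

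TPMCa and TPMR1 were also each compared with TPM. Their libraries held few epithelial transcripts, so the added alteration and epithelial content cannot be told apart here. Compared with TPM, 1 member was called lower in TPMCa, against 3.02% of all genes tested. This was Cers3, which fell by 5.54 ± 0.88 (SE) on the log2 scale (adjusted p = 0.0262, edgeR). In TPMR1 2 members were called lower, against 4.5% of genes tested. Cers3 fell by 5.83 ± 0.89 (SE) on the log2 scale (adjusted p = 0.0198), and Alox12e was at least 141.9-fold lower (adjusted p = 0.0477). The Alox12e call was lost with a replicate block (adjusted p = 0.0736, edgeR) and with only the models compared (0.0898). It was also lost without either replicate of TPM, TPMCa or TPMR1. Elovl4 and Tgm1 were at an adjusted p of 0.0515 each in TPMR1. In each comparison 8 members were lower without overlap, against 32.2% of genes in TPMCa and 28.4% in TPMR1, and Ugcg was higher without overlap in TPMCa by 1.76-fold, as were 29.1% of genes (adjusted p = 0.410). These comparisons share the TPM libraries. Of 17 partners of the pathway, 6 were called lower in TPMCa and 6 in TPMR1, in each case Cyp4f39, Elovl7, Ephx3, Fa2h, Slc27a4 and Sult2b1.

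The log2 difference of Cers3 from TPM was -4.07 for TPMCa and -4.35 for TPMR1 without TPM replicate 1, and -6.25 and -6.55 without TPM replicate 2. Without TPMCa replicate 1 the value for TPMCa was -6.28. The Cers3 call in TPMCa was lost without either TPK replicate, TPM replicate 1 or either TPMCa replicate. More members were called without either TPMR1 replicate, where calls over all genes rose too. In TPMR1 no member was called without TPM replicate 1 or TPMR1 replicate 1, and 1 without TPM replicate 2 or either TPK replicate. All partner calls in TPMCa were lost without either TPMCa replicate, and some without either TPK replicate or TPM replicate 1. Some in TPMR1 were lost without TPM replicate 1. Calls over all genes fell in each of these fits as well, so the losses were not particular to the members or partners. The threshold of the study was an unadjusted p under 0.05 and a log2 change beyond 1. It was set there for DESeq2 and for TPM or TPK against TPMCa and TPMR1 together. With edgeR, 7 members were lower than in TPM in each of TPMCa and TPMR1, against 11.7 and 12.6% of genes. The median log2 fold change over the 10 genes was 5.91 in TPM and 4.03 in TPK against the mean of TPMCa and TPMR1, where the medians over all genes tested were -0.02 and -0.00205. With the genes at the floor set to their bound, the member medians were 5.91 and 3.32.

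TPK and TPM were compared directly to see whether the genes differed between the models that express squamous markers. No gene of the 15875 passed an adjusted p of 0.05 in edgeR. At an unadjusted p under 0.05, 7.17% of all genes and 2 members passed, and DESeq2 called 240 genes, Elovl4 among them. Elovl4 was 117.2-fold lower in TPK (log2 -6.86 ± 1.45 (SE), unadjusted p = 0.00242, adjusted p = 0.653). Pnpla1 was 15.5-fold lower (unadjusted p = 0.0331, adjusted p = 0.683) and Abca12 10.6-fold lower (adjusted p = 0.741). These 3 members were lower in TPK without overlap, as were 23.5% of all genes, and the 2 models overlapped for the other 7. Tgm1 was 1.86-fold higher in TPK with overlapping groups (adjusted p = 0.881).

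Between TPMR1 and TPMCa no gene was called by edgeR, 11.8% of genes and no member passed an unadjusted p of 0.05, and DESeq2 called 772 genes but no member. Tgm1 was the only member without overlap, 4.14-fold lower in TPMR1 (adjusted p = 0.504), where 17.7% of genes were lower without overlap. Abca12, Alox12b and Alox12e were at or under the floor in both models, so no fold is given for them.

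The replicates of TPM and TPK differed, and the members did not all differ in one direction. In TPM 8 of the 10 genes were higher in replicate 1, the exceptions being Elovl4, 4.33-fold higher in replicate 2, and Pnpla1, which was nearly equal. In TPK 8 were higher in replicate 1, the exceptions being Alox12e, 15.1-fold higher in replicate 2, and Cers3. Keratins of the upper layers were also higher in replicate 1 of TPM, where Krt1 was at 917 CPM against 5.72 CPM in replicate 2 and Krt10 at 2942 against 27.7 CPM. Crosslinking substrates did so too, with 11 of 12 higher in replicate 1 of TPM and 11 of 12 in replicate 1 of TPK. General epithelium markers were higher in replicate 1 of TPM for 5 of 6, but all 6 were higher in replicate 2 of TPK. Summed fibroblast markers were at 6370 and 2407 CPM in TPM replicates 1 and 2 and at 9921 and 2443 CPM in those of TPK. The part of these differences in the levels of the members was not tested.

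**Figure D4:**
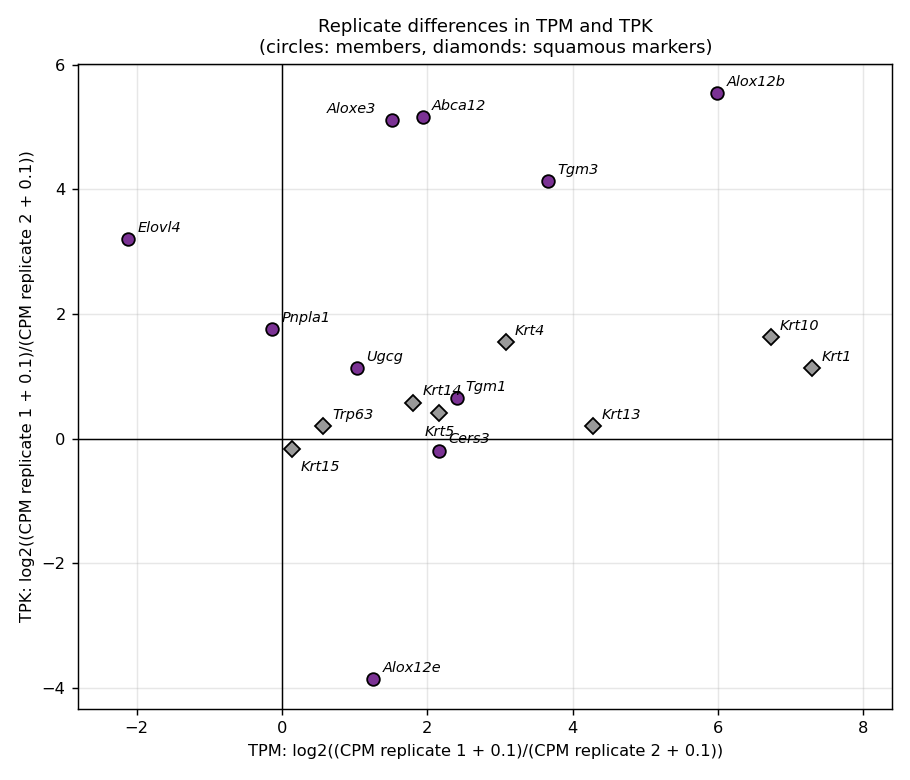
Log2 ratio of replicate 1 to replicate 2, on CPM plus 0.1, in TPM (horizontal) and TPK (vertical) for the 10 genes (circles) and 8 squamous markers (diamonds). Most genes lie in the upper right, where replicate 1 is higher in both models. Elovl4 and Pnpla1 lie to the left and Alox12e and Cers3 below 0.

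As a ratio chosen after the values were seen, Tgm1 CPM was 3.96 and 3.33% of Krt5 CPM in the TPM libraries and 4.15 and 3.53% in the TPK libraries. Cers3 was 1.26 and 1.25% of Krt5 in TPM and 0.530 and 0.808% in TPK. Krt5, a keratin of basal squamous cells, itself ranged from 1281 to 7358 CPM over these libraries. The ratio of Tgm1 to Krt5 thus varied less among the 4 libraries than either gene did.

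Profiles over the 8 libraries were compared as the root mean square difference of log2 CPM after centering each gene. Cers3 and Tgm1 were the closest members at 1.11, followed by Cers3 and Alox12e at 1.33 and Abca12 and Pnpla1 at 1.52. The member nearest to Elovl4 was Pnpla1, at 1.79. Outside the list, Ucn2, Klk9, Lce1a1, Endou and Rnf222 were nearest to the mean profile, at 0.454 to 0.625. The gene nearest to each member was Wfdc5 for Abca12, Lce3c for Alox12b, Nppb for Aloxe3, Trpm6 for Alox12e and Eps8l1 for Cers3. It was Igf2bp1 for Elovl4, Vsig8 for Pnpla1, Dnph1 for Ugcg, Fam83a for Tgm1 and 1700048O20Rik for Tgm3. These are descriptions over 8 libraries, most of whose variation is between models.

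Partners of the pathway were examined as 17 further genes. Of these, 14 were listed with acylceramide synthesis and linoleate oxidation, and 3 with ceramide release. The 14 also hold Acer1, a ceramidase, and Sult2b1, a cholesterol sulfotransferase, so the grouping is broad. Of the 14, 9 were called higher in TPM and 8 in TPK against the mean of TPMCa and TPMR1. The shares over all genes tested were 7.44 and 10.3%. None of Smpd1, Psap and Asah1, lysosomal or extracellular enzymes and a cofactor precursor that release or break down ceramide, was called in either comparison. The counts became 5 in TPM without either TPMCa replicate, and 5 in TPK without either TPK replicate or TPMCa replicate 1. Calls over all genes fell in those fits too. The median log2 fold change over the 17 partners was 4.89 in TPM and 2.10 in TPK.

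Cyp4f39, the hydroxylase that adds the group to which linoleate is later linked, was at 99.8 and 51.5 CPM in TPM, 85.8 and 28.6 CPM in TPK, and 0.167 CPM or less in TPMCa and TPMR1. Sdr9c7, a dehydrogenase that acts after the lipoxygenases, was at 28.8 and 2.06 CPM in TPM, 24.0 and 22.3 CPM in TPK and 0 in the other 4 libraries. Both were called higher in TPM (adjusted p = 0.00113 and 0.0228) and in TPK (0.00109 and 0.0163, edgeR). Ephx3, an epoxide hydrolase, Sult2b1, a cholesterol sulfotransferase, Slc27a4, a fatty acid transport protein, and Sptlc3, a serine palmitoyltransferase subunit, were also called in both. Slc27a4 had the smallest change of the called partners, a log2 difference of 2.20 ± 0.23 (SE) in TPM and 1.90 ± 0.23 (SE) in TPK.

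Of the 14 partners, 13 were lower in TPK than in TPM, as Elovl4 was, and 8 of them without overlap, as were 23.5% of all genes. The 3 ceramide release partners were higher in TPK. None of the 17 passed the adjusted test between these models. Elovl7, Acer1 and Fa2h are given here as examples. Elovl7, a fatty acid elongase, was at 80.1 and 102.6 CPM in TPM, 6.80 and 21.7 CPM in TPK and 0.668 CPM or less in TPMCa and TPMR1. It was called in both comparisons, and the log2 difference of TPK from TPM was -2.68 ± 0.56 (SE, adjusted p = 0.653). Acer1, an alkaline ceramidase, was at 5.24 and 30.9 CPM in TPM and 0.343 and 0 CPM in TPK, and was called in TPM (adjusted p = 0.0156, edgeR). Fa2h, a fatty acid 2-hydroxylase, was at 18.4 and 119.7 CPM in TPM and 14.2 and 7.25 CPM in TPK, and was called in both. Elovl4, Elovl7 (by only 1.28-fold), Acer1 and Fa2h were higher in TPM replicate 2 than in replicate 1. Of the 10 members 8 were higher in replicate 1, as were 10 of the 17 partners and all 8 squamous markers.

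General sphingolipid enzymes are used by most cells. Of 13, Sptlc1 was called higher in TPM (log2 1.54 ± 0.29 (SE), adjusted p = 0.0219) and in TPK (1.13 ± 0.29 (SE), adjusted p = 0.0456, edgeR), and none lower. Over all genes tested, 7.44 and 10.3% were called higher. The median log2 difference of the 13 was 0.27 in TPM and 0.04 in TPK.

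Among 6 other transglutaminases, 4 were tested and Tgm5, another epidermal family member, was called higher in TPM and TPK. It was at 33.5 and 11.7 CPM in TPM, 15.8 and 28.4 CPM in TPK, and 0.507 CPM or less in TPMCa and TPMR1 (adjusted p = 0.0237 in TPM and 0.0193 in TPK). Tgm2, the widely expressed tissue transglutaminase, was at 134.7 CPM or more in all 8 libraries and was not called. Of 4 other lipoxygenases, 3 were tested. Alox12 was called in both (adjusted p = 0.00389 in TPM and 0.00369 in TPK, edgeR), and Alox15, which is also expressed by macrophages, only passed in TPK (adjusted p = 0.0474). The difference in Alox15 between TPK and TPM was not called.

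**Figure D5:**
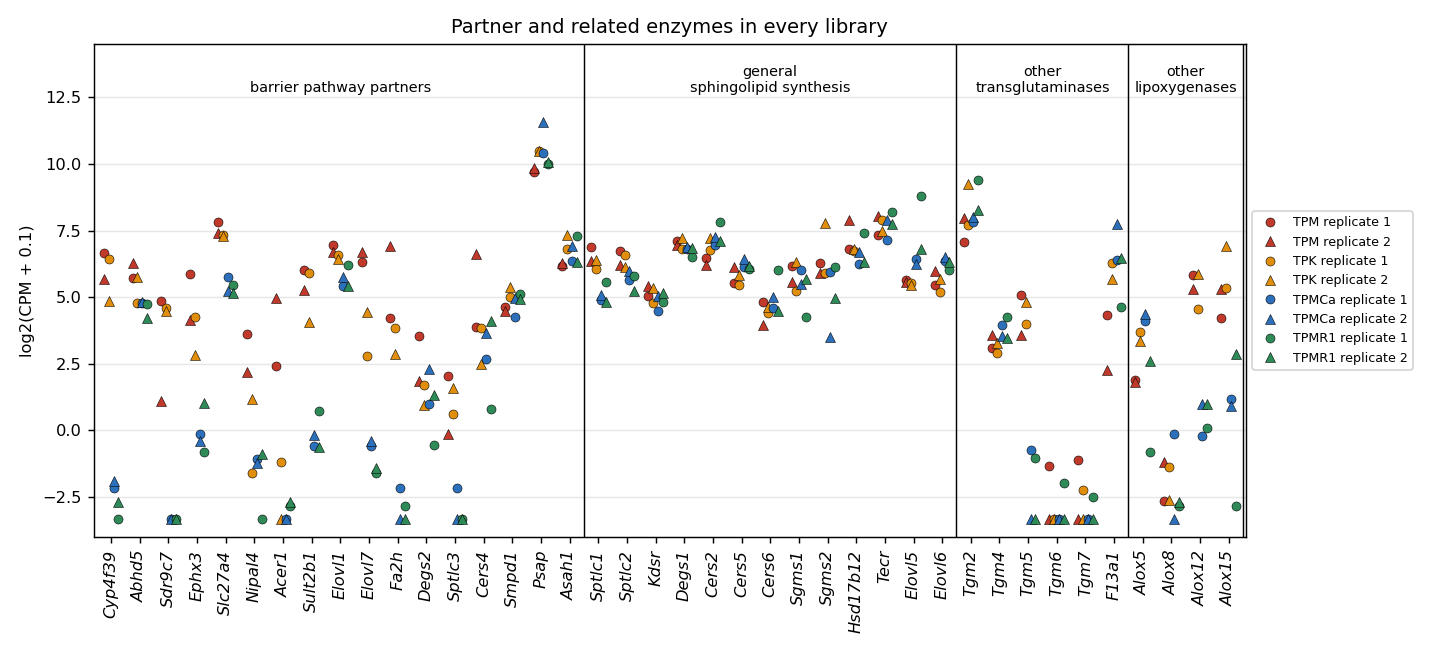
Log2 of CPM plus 0.1 in every library for 17 partners of the pathway, 13 general sphingolipid enzymes, 6 other transglutaminases and 4 other lipoxygenases. Colors give the model, circles replicate 1 and triangles replicate 2. Partners such as Cyp4f39, at 28.6 CPM or more in TPM and TPK and 0.167 CPM or less elsewhere, separate the models, while the general enzymes are expressed in all 4 models.

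Substrates of the transglutaminases were measured as 12 genes of the envelope. Of these 10 were called higher in TPM and 9 in TPK, against 7.44 and 10.3% of all genes tested. Sprr1a, a small proline-rich protein, was at 2932 and 470.1 CPM in TPM, 3180 and 1479 CPM in TPK and 2.78 CPM or less in TPMCa and TPMR1. Ivl, involucrin, was at 57.7 and 33.2 CPM in TPM and 15.9 and 6.20 CPM in TPK, and 0.167 CPM or less elsewhere. Evpl, Ppl, Tchh, Rptn, Cst6, Sprr1b and Sprr2d were called in both as well, and Lor, loricrin, in TPM (adjusted p = 0.0441). Lor was at 211.1 CPM in TPM replicate 1 and 0.858 CPM in replicate 2, a 246.0-fold difference, against 72.7-fold for Alox12b. Ppl, periplakin, was also present in TPMR1, at 215.5 and 38.96 CPM.

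All 8 squamous markers and 6 general epithelium markers were called higher in TPM, and 7 and 6 of them in TPK. Over all genes tested, 7.44% were called higher in TPM and 10.3% in TPK. Of the 5 uterine gland markers Foxa2 and Pax8 were called in both, and Esr1, Pgr and Sox17 in neither. Pgr had log2 differences of -1.37 in TPM and -2.75 in TPK. The median over the 5 was 0.05 in TPM and 0.69 in TPK. None of the markers tested of fibroblasts, endothelium, macrophages, neutrophils or adipocytes was called in these comparisons by edgeR. At an unadjusted p under 0.05 and a log2 change beyond 1, 3 endothelial markers were lower in TPM and 3 in TPK, as were 6.54 and 9.71% of all genes. At that threshold Plin1 of adipocytes was also lower in TPM, at 0.241 and 0 CPM against 1.08 to 58.7 CPM in TPMCa and TPMR1 (unadjusted p = 0.0380, edgeR). Mpo of neutrophils was higher in TPK, at 10.2 and 0.132 CPM against 0.0387 to 2.91 CPM, with overlapping groups (unadjusted p = 0.0406, edgeR). The 6 members called in TPM and the 3 called in TPK were thus called in the same comparisons as most squamous and general epithelial markers. Of the members that were not called, Ugcg had log2 differences below 0 in both models and Elovl4 and Tgm3 in TPK. The part of epithelial content in the levels of the members was not tested.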

How the data were processed

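Processed data of 8 bulk RNA libraries were used. Reads were trimmed by the sequencing company and aligned by the authors to mm10 with STAR, and the deposited counts are whole numbers of reads per gene symbol. The counter, its annotation and its use of strand are not given in the sources used here. A second deposited table, normalized with DESeq2, was not used. Groups came from the sample labels, whose TPM libraries carry the column name TPMS. Replicates came from separate mice.

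Counts were normalized by TMM and filtered by filterByExpr in edgeR 4.0.16 (R 4.3.3), which left 15875 of 24419 genes. Quasi-likelihood tests came from a single fit of all 8 libraries by model, with Benjamini-Hochberg adjustment over every gene tested. Comparisons were TPM and TPK each with the mean of TPMCa and TPMR1, TPMCa and TPMR1 each with TPM, TPK with TPM, and TPMR1 with TPMCa. SEs were derived from the log2 fold change and the F statistic. A fold against libraries at 3 counts or fewer is a bound at 3 counts per library. CPM includes the TMM factors. Exon lengths and positions came from GENCODE M21 (GRCm38) and promoters from RefSeq.

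The 10 genes and all other lists were chosen with earlier results of these data known. Every member was named, and of other lists the genes called in TPM or TPK, with markers as needed; Tgm2, Krt1, Krt10 and the ceramide release genes were named after their values were seen. The fit was tested on simulated data for TPMCa against TPM. It called 10.4% of 4-fold, 68.7% of 16-fold and 87.9% of 64-fold changes, so a gene not called may still differ. Alternatives were DESeq2 1.42.0, its size factors, library size alone, other filters, a replicate term, only the models compared, the threshold of the study and leaving out each library. Results on some engineered genes and on 1 gene of the partner list are not reported here.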

Additional observations from a re-analysis of the deposited data

How the results depend on the processing

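Cers3 in TPM and in TPK was called under all 15 alternatives. Member levels by model were recomputed only with DESeq2 size factors and with library size alone. All 80 recomputed values moved by no more than the SD of the 2 replicates. Many of those SDs were wide and a level at 0 counts cannot move, so this check was weak. Other counts changed. Against TPM, members called lower in TPMCa (1) were 7 with DESeq2, 3 with no filter on low counts, 4 with only the models compared and 7 at the threshold of the study, and partners (6) were 12 with DESeq2 and 13 at that threshold. In TPMR1 members (2) were 7 with DESeq2, 5 with no filter, 1 with only the models compared and 7 at the threshold of the study, and partners (6) were 11, 1 and 11 with DESeq2, only the models compared and that threshold. Members higher in TPK (3) were 5 with DESeq2, 5 with no filter and 5 at the threshold of the study. Between TPK and TPM (0 and 0), DESeq2 called 1 member and 2 partners and the threshold of the study 2 and 3. Between TPMR1 and TPMCa that threshold took in 1 partner. Calls over all genes moved as well. Against TPM, genes called lower in TPMCa (479) were 1572 with DESeq2, 660 with no filter and 844 with only the models compared. In TPMR1 (714) they were 1780, 838 and 51 in the same settings. Genes called higher in TPK (1643) were 2474 with DESeq2 and 1638 with no filter. The cause of these changes was not tested. The Tgm1 call in TPM was lost with only the models compared (adjusted p = 0.0589), as was that of Pnpla1 (0.0510), and Alox12b passed in TPM with DESeq2 (0.00114) and with no filter (0.0423), and in TPK likewise (0.00108 and 0.0348).

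No pairing by replicate number was seen over all genes tested. Deviations of the replicate 1 libraries had correlations of -0.0687 to -0.00819 over 6 pairs of models. This check cannot exclude pairing that acts on some genes only. With a replicate block, members called in TPMR1 against TPM were 1, Tgm3 in TPMCa against TPM turned to 0.031 on the log2 scale, the Tgm1 call in TPM was lost (adjusted p = 0.0546) and Alox12b passed in TPM (0.0424) and TPK (0.0338).

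With each library left out in turn, a lone library was assumed to vary like the others. Calls over all genes also moved with the library left out. Members called were 0 to 3 for TPMCa and 0 to 2 for TPMR1 against TPM, and 2 to 6 for TPM and 1 to 3 for TPK against the mean of TPMCa and TPMR1. Partners were 0 to 9, 3 to 7, 5 to 12 and 5 to 9. Log2 differences that changed sign were Tgm3 (-4.85 to 1.28 in TPMCa and -2.96 to 0.98 in TPMR1 against TPM, -1.13 to 3.40 in TPM and -7.87 to 0.66 in TPK against the mean), Ugcg in TPMR1 against TPM (-0.35 to 0.77), and Aloxe3 (-2.45 to 3.41) and Elovl4 (-3.29 to 0.13) in TPK. None of these was called in the fit of all libraries.

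With 2 libraries per model, SEs in TPM against the mean ranged from 0.48 log2 units for Ugcg to 2.65 for Alox12b. Levels under 0.116 to 0.198 CPM could not be told from 0.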
